A study of Saccharomyces cerevisiae with 8 samples.

Results

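The genes described here encode proteins of the mitochondrial ribosome of Saccharomyces cerevisiae. They were chosen by name: every gene probe on the array whose standard symbol begins MRPL or MRPS, or is MRP or RSM followed by a number. The rule gave 67 members of 6256 gene probes, of which 38 belong to the large subunit and 28 to the small subunit. The remaining one, MRP8, bears the name while its product is not held to be part of the mitochondrial ribosome. Another 15 genes of the mitochondrial ribosome carry other names, such as VAR1 and MHR1, and are given below as a list of their own.

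RNA was measured on 8 two-colour Agilent arrays, with 3 samples taken when a fermentation began (T0h) and 5 taken 6 h into it (T6h). At T0h there was 1 array each for PE-2, JP1 and CAT-1. At T6h, JP1 and CAT-1 had 2 arrays apiece and BY4741 had 1. PE-2 and CAT-1 are heterothallic diploids and JP1 a homothallic diploid, all 3 taken from Brazilian sugarcane mills, while BY4741 is a haploid laboratory strain that lacks working HIS3, LEU2, MET17 and URA3. All cells had been grown beforehand through repeated batches of rich glucose medium. By the label of every array the sample was red (Cy5) and BY4741 RNA of T0h green (Cy3), so values are read as log2 ratios to BY4741 at T0h. The labelling protocol also speaks of a dye swap, which no array's label shows. PE-2 was therefore seen at T0h alone, BY4741 as a sample at T6h alone, and each industrial strain has a single T0h array. The labels call the samples of one time biological replicates, although these are different strains. How the cultures of a strain were kept apart is not given in the sources used here, so its spread may be in part technical.

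Mitochondrial ribosomes translate the few proteins encoded in mitochondrial DNA, nearly all of them subunits of the respiratory chain and of the ATP synthase. In yeast, VAR1 is encoded in mitochondrial DNA itself, while all the other proteins of the mitochondrial ribosome are encoded in the nucleus, made in the cytosol and imported. Fermenting yeast on ample glucose represses respiration, and the mitochondrial ribosome is needed for respiratory growth. The uniform names used below mark proteins shared by all ribosomes (u), shared with bacteria (b) or particular to mitochondria (m), with L or S for the subunit. By these names 27 members are universal, 14 bacterial and 24 mitochondrial. MRP8 and RSM22 have no such name, and RSM22 was counted in the small subunit by its symbol. The members are spread over the genome, and MRPS12 and RSM19 are the only pair that neighbour each other in the R64 gene table.

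The arrays fall on 2 slides. The second holds 2 arrays, both of T6h: replicate 4 (JP1) and replicate 5 (CAT-1). On the 6 arrays of slide 1 the green reference was well above background for all 67 members. On slide 2 it was so for 16 and 9 of them, in that order. The median green spot signal, before background correction, was 959 and 945 on slide 2 against 417 to 512 on slide 1. The red signal, which carries the sample, was well above background for all 67 on every array except CAT-1 T6h replicate 5, where MRP2 was not. Red was weakest on CAT-1 T6h replicates 2 and 5, with median spot signals of 60 and 83 against 234 to 1360 on the others. Of all genes, 82.0% and 81.9% were above background in red there, against 92.6% to 98.3% elsewhere. No member spot was saturated or left out, and all 67 passed the filter on dim probes. LEU2, URA3, MET17 and HIS3, which BY4741 lacks in working form, were above background in red on all 7 arrays of industrial strains and not on the BY4741 array. In green they were not above background on any array, except LEU2 and MET17 on JP1 T6h replicate 1. There LEU2 had a processed signal of 79.6 in green against 68375 in red, and MET17 42.8 against 29956. This places the industrial RNA in red on those 7 arrays. On the BY4741 array, where both RNAs are of BY4741, these genes cannot tell the dyes apart and the direction rests on the label. In the deposited value table, only 3 of 8 columns followed the array of their own sample best. Its columns for JP1 and CAT-1 at T0h followed arrays filed as T6h, each with a correlation of 0.9998 over genes. All values here follow the scanner files, and so do the times of sampling and the sign of every change over time. The table's column medians ran from -0.0542 to 0.0033, its scale and centring are unknown, and it entered no comparison. By the scanner files, the members' ratios correlated by 0.68 to 0.91 between T0h arrays, by 0.31 to 0.77 between T6h arrays and by 0.08 to 0.58 between the times. These are correlations over the 67 genes of arrays that share the reference, given as a description.

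Taken by array, the members' median ratio was near or above 0 at T0h and below 0 at T6h. It was 0.08 in PE-2, 0.44 in JP1 and 0.05 in CAT-1 at T0h. At T6h it was -0.22 and -0.25 in JP1, -0.42 and -0.18 in CAT-1, and -0.12 in BY4741. JP1 at T0h stood highest, and CAT-1 T6h replicate 2 lowest. The median of all 5938 genes kept lay between -0.02 and 0.01 on every array.

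**Figure D1:**
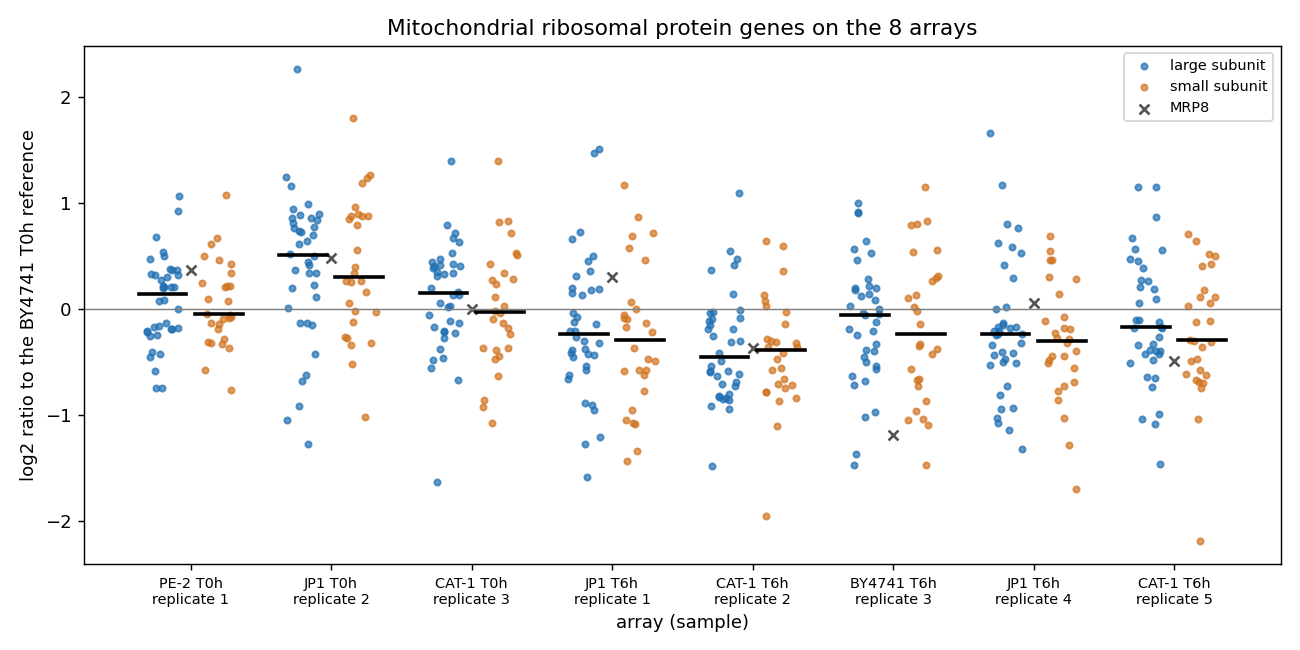
Log2 ratio of each member to the BY4741 T0h reference (vertical axis) on each of the 8 arrays (horizontal axis), with 38 large subunit genes in blue, 28 small subunit genes in orange, medians as black bars and MRP8 as a cross. On all 5 T6h arrays both subunits' medians are below 0, and at T0h the JP1 array has the highest medians, 0.51 for the large and 0.30 for the small subunit.

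The change over 6 h was tested in JP1 and CAT-1, the strains sampled at both times (4 T6h against 2 T0h arrays, strain as a term). Of the 67 members, 12 were lower at T6h and 2 were higher, at a limma adjusted p (Benjamini-Hochberg over 5938 genes) under 0.05. This is 17.9% lower against 6.96% of all genes tested, and 2.99% higher against 12.7% (19.7% of all genes in either direction). The members' median difference was -0.58 on the log2 scale, where all genes had a median of 0.00 to 2 decimals. In all, 54 members had a negative difference, as did 2986 of the 5938 genes. The T0h and T6h arrays of these strains did not overlap in 24 members with lower values at T6h and in 6 with higher, against a background of 19.5% and 21.3% of genes. The first count is well above its background share and the second well below.

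In the small subunit 7 members fell and none rose, among 10 with an unadjusted p under 0.05 in either direction. MRPS12 (uS12m), counterpart of the protein that lines the decoding centre of bacterial ribosomes, fell most. Its log2 ratios were 0.06 in JP1 and -0.37 in CAT-1 at T0h, then -1.34 and -1.70 in JP1 and -1.95 and -2.19 in CAT-1 at T6h. Every T6h value lies below every T0h value. The difference was -1.64 ± 0.29 (SE), a 3.11-fold fall (limma adjusted p = 0.0033). On the single BY4741 array MRPS12 stood at -1.48, the lowest of all members there. RSM19 (uS19m), its neighbour on the chromosome, had no such change, with a difference of 0.30 ± 0.32 (limma adjusted p = 0.552).

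RSM28 (mS46), a small subunit protein linked by genetics to the start of translation, came next. It went from 0.87 in JP1 and 0.53 in CAT-1 to -0.95 and -0.44 in JP1 and -1.11 and -0.48 in CAT-1. The fall was 2.72-fold (-1.44 ± 0.32, limma adjusted p = 0.0101), and BY4741 had -1.05. MRP21 (bS21m), a counterpart of bacterial S21, went from 1.26 and 0.83 to -0.13 and -0.32 in JP1 and -0.42 and -0.57 in CAT-1. All 4 T6h values were below 0 and both T0h values above 0.8. The fall was 2.65-fold (-1.41 ± 0.29, limma adjusted p = 0.00639), and BY4741 had -0.35.

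MRP2 (uS14m) went from 1.19 in JP1 and 0.82 in CAT-1 to -0.05 and -0.77 in JP1 and -0.28 and -0.36 in CAT-1. This is a 2.59-fold fall (-1.37 ± 0.32, limma adjusted p = 0.0126), while BY4741 had 0.02. MRPS16 (bS16m), a counterpart of bacterial S16, was far above the reference at T0h, at 1.80 and 1.40. At T6h it was at 0.72 and 0.68 in JP1 and 0.07 and 0.11 in CAT-1, still above the reference on all 4 arrays. The fall was 2.3-fold (-1.20 ± 0.28, limma adjusted p = 0.0133), and BY4741 had 0.31. The others that fell in the small subunit were RSM23 (mS29, -1.02), counterpart of the human protein DAP3, and MRP17 (bS6m, -0.96). RSM28, MRP21, MRP2 and MRPS16 were above the reference at T0h in both strains, and all of these except MRPS16 were below it on all 4 T6h arrays.

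In the large subunit 5 members fell and 2 rose. MRPL37 (mL54) fell 2.28-fold, from 0.69 in JP1 and 0.67 in CAT-1 to -0.54 and -0.24 in JP1 and -0.92 and -0.34 in CAT-1. The difference was -1.19 ± 0.31 (limma adjusted p = 0.0211), and BY4741 had 0.08. Falls between -1.15 and -1.07 were measured for MRPL51 (mL43), MRPL16 (uL16m), MRPL6 (uL6m) and MRPL33 (uL30m). MRPL6 also stood low on the BY4741 array, at -1.37, while MRPL33 was at 0.22 there.

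The members that rose, MRP20 (uL23m) and MRPL4 (uL29m), are neighbours in the ribosome and lie at the exit of the tunnel through which new proteins leave the large subunit. MRP20 went from -1.04 in JP1 and -0.46 in CAT-1 to -0.07 and 0.00 in JP1 and 0.47 and 1.15 in CAT-1. MRPL4 went from -0.91 and -0.55 to 0.19 and 0.76 in JP1 and 0.41 and 0.05 in CAT-1. Both were under the reference at T0h and near or above it at T6h. The rises were 2.20-fold for MRP20 (1.14 ± 0.31, limma adjusted p = 0.0273) and 2.13-fold for MRPL4 (1.09 ± 0.32, limma adjusted p = 0.0369). On the BY4741 array both lay below the reference, at -0.54 and -0.50. The next highest difference, that of MRP4 (uS2m), was 0.76 ± 0.32 and did not pass (limma adjusted p = 0.126). MRP8 had a difference of -0.37 ± 0.29 and did not pass either (limma adjusted p = 0.408).

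The subunits had close medians, -0.59 for the large and -0.56 for the small. These counts rest on the single T0h arrays. Without JP1 T0h replicate 2, or without CAT-1 T0h replicate 3, only 1 T0h array is left, and MRPS12 was the sole member still called. In neither fit was the share of members called lower larger than that of all genes. The members' median was -0.35 and -0.70, in that order. Within slide 1, 7 members fell and none rose, with a median of -0.55. With slide as a block, 9 fell and none rose (29 members at an unadjusted p under 0.05 in each fit). Of all genes, 4.5% and 5.71% fell in these fits. MRP20 and MRPL4 did not pass there (limma adjusted p = 0.0835 and 0.0676 within slide 1). In the red signal alone, which does not use the green reference, 44 fell and 2 rose with a median of -0.86. There 22.7% of all genes fell and 19.5% rose, also more than in the ratios. With ratios centred on the median and no loess, no member passed (12 at an unadjusted p under 0.05), and with the scanner software's processed signals 1 fell. Of all genes, 1.55% and 2.73% fell there, in that order. The members' median was negative under all of these settings.

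**Figure D2:**
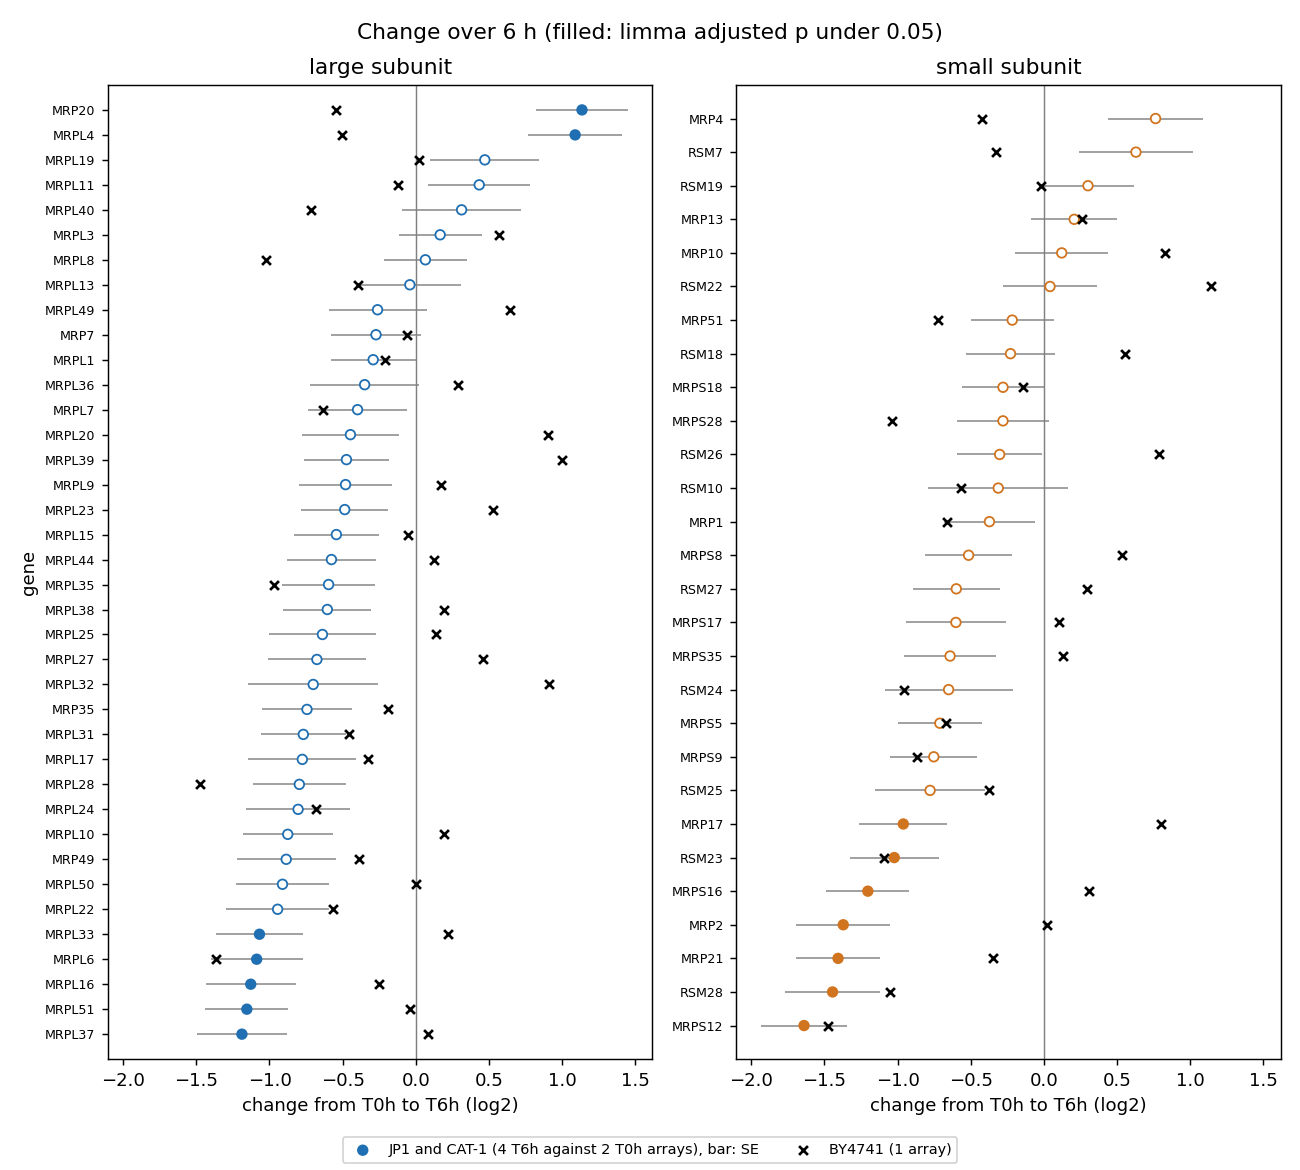
Difference between T6h and T0h on the log2 scale (horizontal axis) for each large and small subunit member (vertical axis); circles are JP1 and CAT-1 with the SE as bars, filled where the limma adjusted p was under 0.05, and crosses are the single BY4741 array. The 5 filled large subunit genes on the left lie between -1.19 and -1.07, the 7 in the small subunit between -1.64 and -0.96, and MRP20 and MRPL4 are the filled circles on the right; MRP8 is not drawn.

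Each strain's own change can be set side by side as values without a test. The members' median change was -0.70 in JP1, -0.35 in CAT-1 and -0.12 in BY4741. In JP1 58 of 67 members were lower at T6h, in CAT-1 49 and in BY4741 38. These are 86.6%, 73.1% and 56.7%, against 49.9%, 49.9% and 50.8% of all genes kept, so the share in BY4741 was near the background. Both CAT-1 T6h arrays had the weakest red signal, and its part in these values was not tested. The change of BY4741 is the ratio of its 1 T6h array to the BY4741 reference, and that reference also enters the ratios of the other strains. In all 3 strains 26 members were lower, which is 38.8% against 22.2% of all genes kept. MRPS12, RSM28, RSM23 and MRPL6 were among them, with values under -0.70 in each strain. MRP13 (mS44), MRPL3 (mL44) and MRPL19 (uL11m) were higher in all 3.

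On the BY4741 array 8 members had a log2 ratio of -1 or less and 1 had 1 or more, against 13.1% and 15.6% of all genes. The lowest were MRPS12, MRPL28 (mL40, -1.47), MRPL6 and MRP8 (-1.19). The highest were RSM22 (1.15), related to methyltransferases and bound to the small subunit, MRPL39 (bL33m, 1.00), MRPL32 (bL32m, 0.91) and MRPL20 (mL58, 0.90). MRPL32 is cut to its mature form by the m-AAA protease of the inner membrane.

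**Figure D3:**
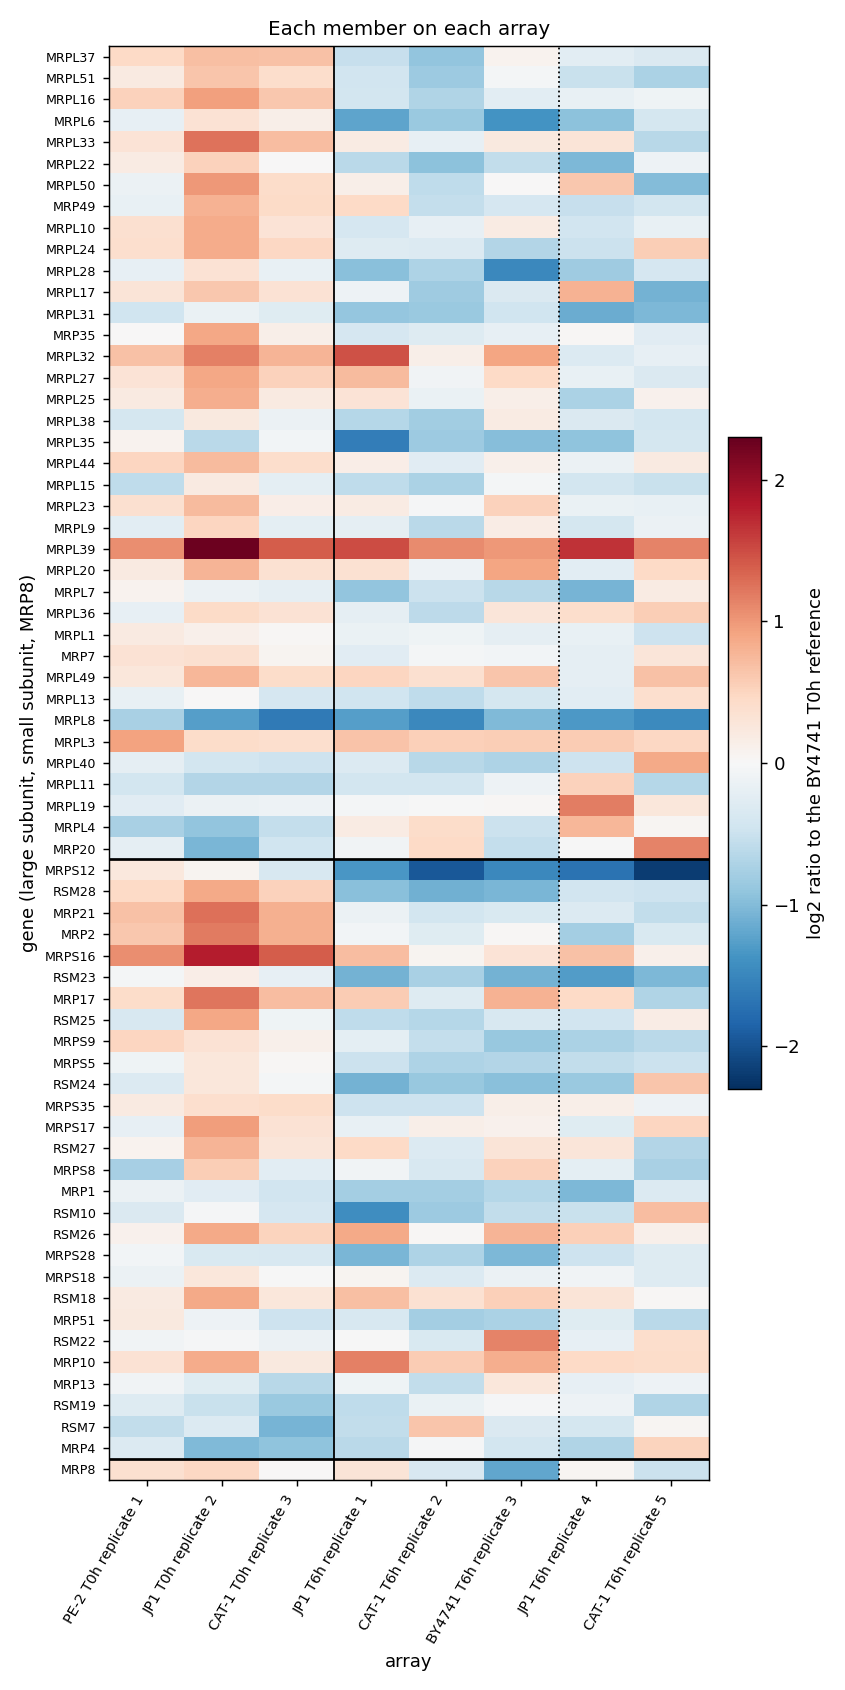
Log2 ratio to the BY4741 T0h reference by colour for each of the 67 members (rows: large subunit, small subunit, then MRP8, each sorted by the change in JP1 and CAT-1) on each of the 8 arrays (columns; a solid line parts T0h from T6h, a dotted line parts slide 1 from slide 2). MRPS12 is blue on all 5 T6h arrays, from -2.19 to -1.34, and MRPL39 is red on all 8, from 1.00 to 2.26.

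When all 5 T6h arrays were set against all 3 T0h arrays, which is the comparison the submitters state, 11 members were lower and none was higher. This is 16.4% against 5.93% of all genes lower, and 9.72% of all genes were higher; 20 members had an unadjusted p under 0.05. In either direction 15.6% of all genes passed. T0h and T6h arrays did not overlap in 20 members with lower and 2 with higher values at T6h, against 11.8% and 13.2% of genes. The median was -0.46, with 4 of the falls in the large and 7 in the small subunit. MRPS12 (-1.71 ± 0.28, limma adjusted p = 0.00244), RSM28 (-1.42 ± 0.27) and MRP21 (-1.28 ± 0.25) again had the lowest differences, followed by MRP2 (-1.16), MRPL6 (-1.05) and MRPS16 (-1.04). MRPL4 (0.92), MRP20 (0.77) and RSM7 (uS7m, 0.54) had the highest and did not pass. MRP8 had -0.62 ± 0.34 (limma adjusted p = 0.244). The strains differ between the times here, and the arrays of JP1 and CAT-1 are those of the comparison above. With the replicate number as a block, 2 of 67 members fell, a share just below the 3.13% of all genes that did. Without PE-2 T0h replicate 1 or without CAT-1 T6h replicate 2, 6 members fell, against 3.89% and 4.48% of all genes. Without JP1 T0h replicate 2 or CAT-1 T0h replicate 3, 3 members fell, against 2.9% and 2.96% of all genes.

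At T0h the industrial strains were set against BY4741, by testing the 3 ratios against 0. Each ratio is from a different strain (PE-2, JP1 or CAT-1), with no replicate within a strain. The SE therefore joins differences between strains and between arrays. Here 14 members were higher and 5 lower in the industrial strains, which is 20.9% and 7.46% of the members against 15.2% and 17.5% of all genes (32.7% in either direction). The median was 0.24, 0.30 in the large subunit with 9 higher and 3 lower, and 0.05 in the small subunit with 5 higher and 2 lower. All 3 ratios lay above 0 for 32 members and below 0 for 15, where each share is 32.0% over all genes. This test leaves out the spread of BY4741, whose RNA is the shared reference. The array's probes and the industrial strains' own sequences were not compared, so the part of probe mismatch was not tested.

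MRPL39 (bL33m), a small protein of the large subunit, was highest. It had log2 ratios of 1.07 in PE-2, 2.26 in JP1 and 1.39 in CAT-1, a 2.97-fold difference (1.57 ± 0.25 SE, limma adjusted p = 0.0066). On the T6h arrays it stayed between 1.00 and 1.66, with BY4741 lowest. MRPS16 had 1.07, 1.80 and 1.40 in the same order, 2.68-fold (1.42 ± 0.19, limma adjusted p = 0.00449). In both genes JP1 was highest and PE-2 lowest, and all 3 strains lay above 1. MRP21 (0.92 ± 0.18), MRPL32 (0.88 ± 0.17), MRP2 (0.87 ± 0.18) and MRP17 (0.79 ± 0.20) were the next highest that passed. JP1 had the highest ratio of the 3 strains in each of these as well. All of the genes named here are shorter than 699 bases. Over all genes below that length the T0h median was also highest in JP1, at 0.33, against 0.16 in CAT-1 and -0.03 in PE-2.

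MRPL8 (bL17m) was lowest, with -0.75 in PE-2, -1.27 in JP1 and -1.63 in CAT-1, a 2.32-fold difference (-1.22 ± 0.21, limma adjusted p = 0.00798). It was below the reference at T6h too, from -1.48 to -1.27 in JP1 and CAT-1 and at -1.02 in BY4741. The others were MRP4 (-0.75 ± 0.19), MRPL4 (-0.74 ± 0.16), RSM7 (-0.66 ± 0.19) and MRPL11 (uL10m, -0.59 ± 0.16), a protein of the ribosomal stalk base. All 5 of these genes were below 0 in each of the 3 strains. MRP8 was at 0.28 ± 0.17 (limma adjusted p = 0.24).

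By uniform name, the universal members had a median of -0.02 with 3 higher and 4 lower. The bacterial ones had 0.47 with 6 higher and 1 lower, and the mitochondrial ones 0.37 with 5 higher and none lower. The shares higher were 11.1%, 42.9% and 20.8% in that order, against 15.2% of all genes. The shares lower were 14.8%, 7.14% and 0%, against 17.5%. Gene length was not held equal between these classes. Members shorter than 699 bases had a median of 0.42 here and the longer ones -0.03. Without CAT-1 T0h replicate 3, 2 members were higher and none lower (14 at an unadjusted p under 0.05), where 3.42% of all genes were higher and 5.54% lower. Without JP1 T0h replicate 2, 5 were higher and 3 lower, against 11.7% and 15.3% of all genes, and the small subunit's median was -0.07. In both fits the members' share higher was below that of all genes.

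**Figure D4:**
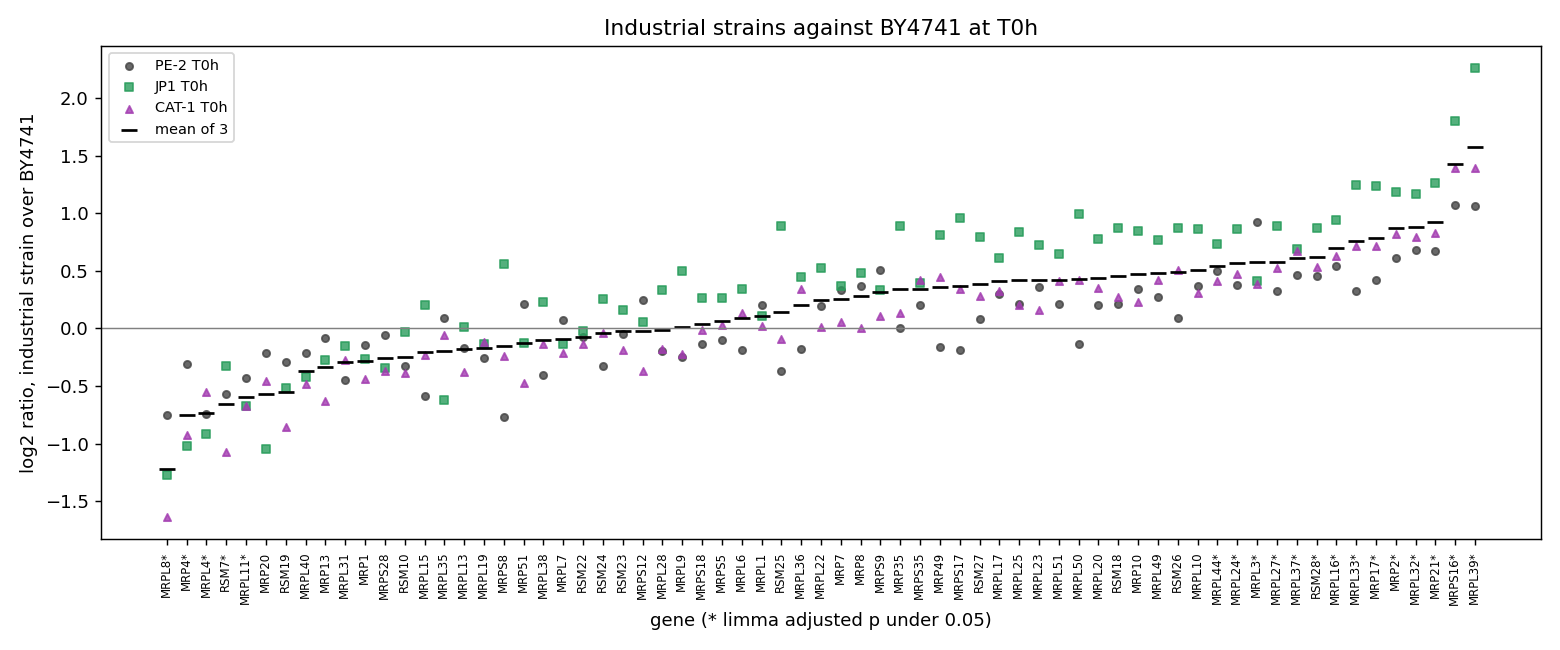
Log2 ratio of PE-2, JP1 and CAT-1 to BY4741 at T0h (vertical axis) for the 67 members sorted by the mean of the 3 (horizontal axis; an asterisk marks a limma adjusted p under 0.05). The 5 marked genes on the left run from MRPL8 at -1.22 to MRPL11 at -0.59, and MRPS16 and MRPL39 lie apart on the right at 1.42 and 1.57.

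At T6h no member passed limma's test between JP1 and CAT-1 together and BY4741, nor did any of the 5938 genes. LEU2, URA3, MET17 and HIS3, which BY4741 lacks in working form, were not called either, at differences from 2.02 to 6.86. A lack of calls here therefore does not show that the strains were alike. BY4741 has 1 array, whose spread was taken from the others. RSM22 had the lowest difference, with 0.00 and -0.19 in JP1 and -0.36 and 0.40 in CAT-1 against 1.15 in BY4741. Its difference was -1.18 ± 0.46 (limma adjusted p = 0.276). MRPS8 (uS8m, -0.89) and MRPL20 (-0.79) were next lowest. MRP8 (1.06 ± 0.47, limma adjusted p = 0.332), MRP20 (0.93) and MRPL4 (0.86) were highest. The members' median was -0.06, and it turned to 0.15 with median centring.

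CAT-1 and JP1, compared with time as a term, differed in no member (5 at an unadjusted p under 0.05), and in 0.0674% of genes higher and 0.0337% lower in CAT-1, 0.101% in all. The lowest differences were in MRPL50 (bL9m, -0.97 ± 0.30), MRPL17 (mL46, -0.96 ± 0.35) and MRP17 (-0.85 ± 0.28), and the highest in MRP20 (0.76 ± 0.29), MRP4 (0.64 ± 0.31) and MRPL35 (mL38, 0.62 ± 0.30). Their limma adjusted p lay between 0.194 and 0.365. MRP8 had -0.56 ± 0.27. The median was -0.15, and -0.42 with processed signals, -0.58 with median centring and -0.40 in the red signal alone. In red alone 3 members were lower in CAT-1 (2.58% of all genes lower and 2.78% higher), 31 had an unadjusted p under 0.05, and the difference of MRP4 was -0.0897.

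The change of JP1 and CAT-1 over 6 h was also set against that of BY4741. BY4741 enters this test with 1 array, assumed to vary as the other strains' arrays do. A single member passed, 1.49% of 67, where 5.20% of all genes were lower and 6.53% higher (11.7% in all), so the members' share was below the background. It was MRP17, lower by 3.38-fold (-1.76 ± 0.46, limma adjusted p = 0.0415). Its ratios were 1.23 in JP1 and 0.71 in CAT-1 at T0h, then 0.58 and 0.46 in JP1 and -0.30 and -0.69 in CAT-1, and 0.80 in BY4741. The industrial strains' values fell while BY4741 lay above its own reference. MRPL32 (-1.61 ± 0.72) and MRPS16 (-1.51 ± 0.44) were next and did not pass, nor did MRP20 (1.68 ± 0.49), MRPL4 (1.59 ± 0.49) and MRP4 (1.19 ± 0.47) at the other end. MRP8 had 0.82 ± 0.45. The median was -0.40. The call of MRP17 was lost without CAT-1 T6h replicate 2 (limma adjusted p = 0.0938) or replicate 5 (0.125), with no background correction (0.107), with a smaller offset (0.136), with processed signals (0.297) and with median centring (0.56).

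Other genes of the same machinery were read from fixed lists, in the change over 6 h of JP1 and CAT-1. Over all genes 12.7% rose and 6.96% fell. Of the 15 genes of the mitochondrial ribosome with other names, 3 fell (20%) and none rose, with a median of -0.63. They were MHR1 (-1.38 ± 0.29), a protein also known for its part in recombination of mitochondrial DNA, RTC6 (-1.33 ± 0.34) and MNP1 (-1.24 ± 0.29). MHR1 had -0.21 in JP1 and -0.42 in CAT-1 at T0h, and -1.76, -1.60, -1.75 and -1.70 on the 4 T6h arrays, with -1.17 in BY4741. VAR1, from mitochondrial DNA, had a difference of -0.87 ± 0.51 and did not pass (limma adjusted p = 0.269).

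Of 14 mitochondrial translation factors, TUF1 (-1.18 ± 0.33), the elongation factor Tu, fell and SLM3 (1.30 ± 0.39), a tRNA-modifying enzyme, rose. Of 17 aminoacyl-tRNA synthetases, 1 rose, MSF1 (1.46 ± 0.30) for phenylalanine, and the median was 0.08. Of 18 translational activators and ribosome receptors, 2 rose and 2 fell. PET122, an activator of COX3 translation, rose by 4.90 ± 0.32 (limma adjusted p = 7.66e-06), from -0.83 and -2.26 at T0h to between 3.10 and 3.68 on the 4 T6h arrays. PET54, another activator of COX3, rose by 1.04 ± 0.31. CBP6 (-1.43 ± 0.42), for cytochrome b, and MBA1 (-0.96 ± 0.29), a receptor of the ribosome at the inner membrane, fell. Of 12 assembly factors, MRM1 (1.41 ± 0.38), which methylates the large ribosomal RNA, rose and MTG1 (-0.94 ± 0.29), a GTPase, fell. The shares of these lists that rose, 5.88% to 11.1%, were below the 12.7% of all genes. The shares that fell were 0% to 11.1%, against 6.96% of all genes. None of 19 genes of import and matrix proteases passed (3 at an unadjusted p under 0.05).

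The nuclear genes of the respiratory chain and the ATP synthase moved much further than the members. Of 34, 32 fell, with a median of -1.95 against -0.58 for the members, and COX5A (-3.69 ± 0.33), COX4 (-3.27 ± 0.35) and COX6 (-3.11 ± 0.35), subunits of cytochrome c oxidase, had the lowest values. Their median change was -2.29 in JP1, -1.73 in CAT-1 and -2.53 in BY4741. Of the 138 cytosolic ribosomal protein genes, 20 rose (14.5%, near the 12.7% of all genes) and 2 fell. Their median change was 0.70 in JP1, 0.05 in CAT-1 and 1.89 in BY4741, where the members' medians were -0.70, -0.35 and -0.12. In CAT-1 the cytosolic value lay next to 0, with 65 of 138 genes lower at T6h. The part of the weak red signal of the CAT-1 T6h arrays was not tested. No test between the lists was run.

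**Figure D5:**
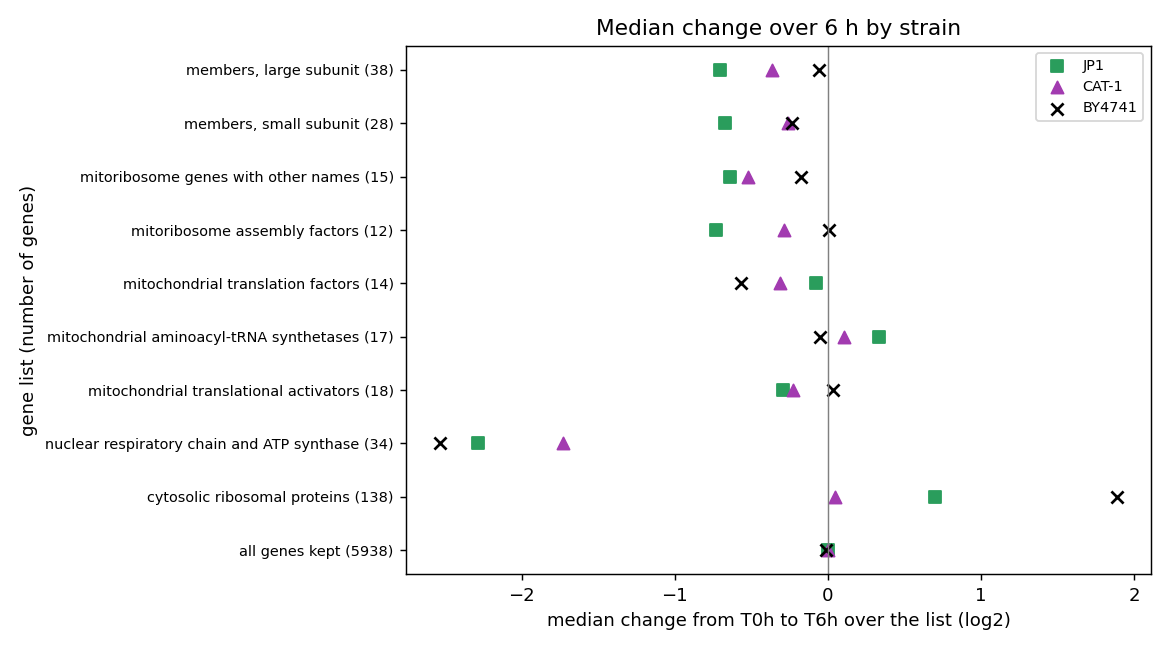
Median change from T0h to T6h on the log2 scale (horizontal axis) of each gene list (vertical axis, number of genes in brackets) in JP1 (2 T6h arrays against 1), CAT-1 (2 against 1) and BY4741 (1 array against the reference). The members of both subunits lie between -0.70 and -0.05, the respiratory chain and ATP synthase genes between -2.53 and -1.73, and the cytosolic ribosomal proteins between 0.05 and 1.89.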

How the data were processed

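Per the file headers, spots were read with Agilent's Feature Extraction, version 10.10.1.1. The deposited spot signals and backgrounds are intensity values. A deposited log10 ratio per spot was not used. The deposited marks for spots above background, uneven, outlying or saturated have no physical unit (other), and the deposited table of processed values states no unit (other). Per the submitters' processing notes limma was used (version not given in the sources used here).

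The deposited median signals (mean signals, which had been planned for, were not used) went through normexp (offset 50) and then loess within each array in limma 3.58.1 under R 4.3.3, with control, uneven and outlying spots given no weight. The 2 spots of each probe were averaged, and 1 probe stands for each gene. Of 6256 probes, 5938 had at least 3 arrays with red or green well above background and were kept. Symbols and uniform names come from the RefSeq R64 gene table, in which 5756 systematic names were found and 500 were not. Subunits follow the uniform names. Of the members without one, RSM22 was placed by its symbol and MRP8 by textbook knowledge.

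The 6 comparisons used limma's moderated two-sided test, adjusted by Benjamini-Hochberg over 5938 genes, with a threshold of 0.05. The small number of arrays limits the precision. The members, the lists and the tests were chosen with earlier results of these data known. Named members are those that passed, up to 6 each way with the largest difference, the 3 highest and 3 lowest in each comparison, the 4 highest and 4 lowest on the BY4741 array, and MRP8. The other lists, taken from textbook knowledge, give up to 3 passing genes each way. The remaining falls in JP1 and CAT-1, RSM19, VAR1 and the 3 members higher in all strains were added after their values were seen. The fits were tested on simulated data. Same-numbered T0h and T6h samples are of different strains and had correlations of deviations from -0.15 to -0.07, so the numbers do not pair them. Alternatives were other background corrections, normalisations, filters, the red channel, slide and leaving out each array.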

Additional observations from a re-analysis of the deposited data

Results flagged for a closer look

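MRP17, a small subunit gene, had a change over 6 h in JP1 and CAT-1 that differed from that in BY4741 by -1.76 (limma adjusted p = 0.0415), a difference between groups of strains past the threshold. BY4741 has 1 T6h array in that test, and its spread was taken from the other strains. The call was lost in 6 of 11 alternatives, with a limma adjusted p from 0.0117 to 0.56 over them, and 1 of 67 members is a smaller share than the 5.20% of all genes that were lower. The T6h arrays of the 25 values examined held none that lay apart from the other 4 by Dixon's test at 0.71.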

How the results depend on the processing

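In the change over 6 h of JP1 and CAT-1, the 12 members lower and 2 higher became 7 and 0 with no background correction and within slide 1, 4 and 0 of 9 members left by the strict filter on dim probes, 1 and 0 with processed signals, 0 and 0 with median centring and 44 and 2 in the red channel alone (median -0.86). Of all genes, 3.6% fell with no background correction, 4.5% within slide 1, 2.73% with processed signals, 1.55% with median centring and 22.7% in red alone. The 2 higher became 0 with an offset of 10 and with slide as a block. Leaving out 1 array gave 1 to 11 lower, 0 to 2 higher and medians from -0.70 to -0.35. In T6h against T0h on all arrays, 11 lower became 3 with processed signals and the strict filter, 5 with median centring (median -0.67), 31 in red alone (median -0.70) and 2 with the replicate block, where 15.4% and 3.13% of all genes were lower. Leaving out 1 array gave 3 to 14 lower, 0 to 1 higher and medians from -0.55 to -0.31. At T0h, 14 higher and 5 lower became 8 and 2 with processed signals and 1 and 1 with the strict filter, and median centring left 2 lower. Of all genes, 14.6% were higher and 14.2% lower with processed signals, and 11.4% were lower with median centring. Leaving out 1 array gave 2 to 15 higher, 0 to 7 lower and medians from 0.08 to 0.30. At T6h, JP1 and CAT-1 together less BY4741, the median was 0.15 with median centring, -0.21 with the strict filter and -0.26 in red alone. In CAT-1 against JP1 it was -0.42 with processed signals, -0.58 with median centring and -0.40 in red alone, where 3 members were lower and MRP4 turned to -0.0897. In the change against that of BY4741, 1 lower became 0 with no background correction, an offset of 10 (median -0.54), processed signals and median centring, and 3 with slide as a block. The strict filter left out MRP17, so the calls under it were of other members. Leaving out 1 array gave 0 to 5 lower, 0 to 2 higher and medians from -0.54 to -0.36. The large minus small subunit median moved to -0.53, -0.57, -0.11 and -0.31 with the strict filter over time, over all arrays, at T0h and at T6h, to -0.21 in red alone at T6h and to -0.34 with processed signals against BY4741. The cause was not tested, beyond the fewer members or arrays where these were left out. Of 709 values of named members recomputed, 600 kept their direction and side of the threshold, 96 lost the call, 12 gained one and 1 changed sign. Processed signals moved the median of all genes by 0.11 over time, 0.18 at T6h, -0.11 in CAT-1 against JP1 and 0.17 against BY4741. The strict filter moved it by -0.26 to 0.44 in 5 comparisons. Quantile scaling between arrays was used for the red channel alone and was not run on the ratios. The slide block could not be fitted at T0h, and fits that lacked a needed group were not run. The planned search of promoters for motifs was not run. Depth here is signal over background, and the green signal of slide 2, seldom above background, limits the ratios of its arrays.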

Other observations

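After the values were seen, the members were set against gene length in the R64 table, as a description. Members ran from 213 to 1887 bases, and 33 were shorter than the median of 699. At T0h the shorter members had a median difference of 0.42 between the industrial strains and BY4741, and the longer ones -0.03. In the change over 6 h of JP1 and CAT-1 the shorter members had a median of -0.64 and the longer -0.39, and in that change less the change of BY4741 -0.80 and -0.05. Spearman's rho between length and value over the 67 members, which share arrays and reference, was -0.39, 0.29 and 0.49 in the same order. Over 5649 genes kept with a length it was -0.07, 0.13 and 0.23. It was highest in CAT-1 against JP1, at 0.52 over the members and 0.28 over all genes. Shorter genes as a whole moved the same way, with medians of 0.16 against -0.04 in longer genes at T0h, -0.22 against 0.06 over 6 h and -0.48 against 0.17 relative to BY4741. On single arrays rho over the members ran from -0.48 in JP1 at T0h to 0.20 in CAT-1 T6h replicate 5. What part RNA quality or labelling had in this was not tested.

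FYV4 (1.36 ± 0.21, limma adjusted p = 0.0067) and RTC6 (1.06 ± 0.22), genes of the mitochondrial ribosome with other names, were higher in the industrial strains at T0h, as was VAR1 (0.98 ± 0.25), while IMG1 (-0.81 ± 0.19) was lower. VAR1 had 0.98, 0.36 and 1.59 in PE-2, JP1 and CAT-1. Among assembly factors MRM2 (0.96 ± 0.16), ATP25 (0.86 ± 0.15) and MAM33 (0.70 ± 0.20) were higher. Among translation factors MSS1 (0.64 ± 0.16) was higher and SLM3 (-1.20 ± 0.16) and MEF2 (-1.12 ± 0.20) were lower. By list, 5 of 15 genes with other names were higher and 1 lower, and 4 and 0 of 12 assembly factors. Translation factors had 1 higher and 2 lower of 14, translational activators 2 and 2 of 18, and synthetases 0 and 1 of 17. Import and matrix proteases had 2 and 4 of 19, and respiratory chain and ATP synthase genes 7 and 3 of 34. Of all genes, 15.2% were higher and 17.5% lower.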
